A study of Mus musculus with 9 samples.

Results

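Genes of the serpin and stefin families of protease inhibitors were followed in back skin of C57BL/6 male mice. Dermatitis was induced by 1-chloro-2,4-dinitrobenzene (DNCB), a contact sensitizer. The genes were 8 serpins, Serpinb3a, Serpinb3b, Serpinb3c, Serpinb3d, Serpinb12, Serpinb6d, Serpinb5 and Serpina12, and the stefin Stfa3, 9 of the 34637 genes in the deposited FPKM table. They were selected by name as inhibitors of skin, with their difference between the groups already known, so their values are given as a description without a test. All 9 were found by name and joined to the count table by gene identifier.

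Mice of both groups were 6 to 8 weeks old. Each was sensitized with 200 µL of 1% DNCB on day 1 and challenged with 100 µL of 0.5% DNCB from day 4 to day 21. After day 7 the FJDHF-M group was fed the Fangji Dihuang formulation, a herbal prescription, at its middle dose, and the Model group was given water, until day 28. Poly(A) RNA of whole back skin was sequenced in 5 FJDHF-M and 4 Model libraries, with 74648669 to 79474215 counts per library. Neither the labels nor the methods explain the codes of the data columns. Columns coded MR (5) were read as FJDHF-M and columns coded MXL (4) as Model, since the numbers match the group sizes and MX could stand for mo xing, Chinese for model. The L is unexplained. Each direction below rests on this reading. A column was taken as 1 mouse, which the sources do not state for codes such as MR3_4, and no batch is given. Untreated skin was not analysed here.

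Serpins are proteins that trap a protease with an exposed loop, the reactive centre loop, which the protease cleaves and which then locks the enzyme in place. Clade B serpins mostly stay inside the cell and are abundant in stratified epithelia, where they meet both serine and cysteine proteases. Stefins are small cytoplasmic proteins that block cysteine proteases such as cathepsins without being cleaved. In the upper epidermis, inhibitors of both kinds act beside kallikrein-related peptidases, the serine proteases that release cells from the skin surface.

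Of the 9 genes, 6 lie on chromosome 1, in GRCm38 coordinates from GENCODE M21. Serpinb5 is at chr1:106861173-106883348 and Serpinb12 at chr1:106934449-106957080, both on the plus strand. On the minus strand follow Serpinb3a at chr1:107045587-107052303, Serpinb3d at chr1:107078167-107083506, Serpinb3b at chr1:107153940-107278361 and Serpinb3c at chr1:107271201-107278371. The spans of Serpinb3b and Serpinb3c thus overlap on the same strand. A transcript of Serpinb3b that starts within the first exon of Serpinb3c shares 35 exonic bases with it. The remaining genes are apart, with Serpina12 at chr12:104028769-104044443 (minus strand), Serpinb6d at chr13:33661405-33671581 (plus strand) and Stfa3 at chr16:36450537-36455392 (minus strand).

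The coding sequences of the 4 Serpinb3 genes were 86.3% to 93.1% identical in pairs, with Serpinb3b and Serpinb3c the closest. The stretch shown here starts at the hinge of the reactive centre loop, found as the only match of the hinge motif of inhibitory serpins in each translated coding sequence, and runs over 30 codons of Serpinb3a, coding bases 1006 to 1095. It is shown because it is the part that meets the protease. Capitals mark bases substituted relative to Serpinb3a in a gapped alignment of the coding sequences.
Serpinb3a (chr1:107046085-107046174): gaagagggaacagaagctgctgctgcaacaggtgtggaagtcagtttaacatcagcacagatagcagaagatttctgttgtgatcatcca
Serpinb3b (chr1:107154438-107154527): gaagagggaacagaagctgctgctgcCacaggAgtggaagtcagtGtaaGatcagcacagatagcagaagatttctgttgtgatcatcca
Serpinb3c (chr1:107271698-107271784): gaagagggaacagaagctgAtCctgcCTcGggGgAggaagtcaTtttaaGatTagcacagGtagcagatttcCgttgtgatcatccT
Serpinb3d (chr1:107078262-107078351): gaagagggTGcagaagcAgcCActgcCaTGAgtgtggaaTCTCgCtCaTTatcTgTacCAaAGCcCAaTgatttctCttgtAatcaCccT
Against Serpinb3a, Serpinb3b had 4 substituted bases, Serpinb3c 13 with 3 bases missing, and Serpinb3d 31. The loop sequences of Serpinb3a and Serpinb3b were thus the most alike.

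Of the 50-base windows of each transcript, 12.2% to 15.2% of those of the Serpinb3 genes also occurred in a transcript of another gene, against 3.1% to 3.6% for Serpinb6d and 0.0% for Serpinb12, Serpinb5, Serpina12 and Stfa3. At the read length of 150 bases this share fell to 3.4% for Serpinb3a, whose partner was the gene model Gm8080, and to 0.0% for the other genes. The sources do not state how reads that match several genes were counted, so levels of the 4 Serpinb3 genes are uncertain as to which copy they belong to, and the low counts of Serpinb3c and Serpinb3d most of all.

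The region before the annotated start site was also compared between these copies. RefSeq gives promoters of 250 bases before and 50 after the start for all 9 genes (GRCm38.p6). Over these 300 bases Serpinb3b and Serpinb3c were 90.0% identical and Serpinb3a and Serpinb3b 79.3%, in a gapped alignment. Serpinb3d reached 47.4% to 48.3% with the other copies, as unrelated promoters among the 9 did (41.4% to 49.2%). However, the RefSeq start of Serpinb3d lies directly before an ATG and inside its GENCODE span, which reaches 107083506. Its region may thus not be a promoter like those of the other copies. The low identity and its TATAAA match therefore cannot say whether the promoters differ. The last 100 bases before the start are shown for the 4 copies, with the letters TATAAA, on either strand, in capitals.
Serpinb3a (chr1:107052304-107052403): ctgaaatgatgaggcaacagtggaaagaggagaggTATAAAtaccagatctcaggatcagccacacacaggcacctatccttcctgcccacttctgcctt
Serpinb3b (chr1:107161115-107161214): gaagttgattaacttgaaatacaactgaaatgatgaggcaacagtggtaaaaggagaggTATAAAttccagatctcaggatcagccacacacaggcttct
Serpinb3c (chr1:107278372-107278471): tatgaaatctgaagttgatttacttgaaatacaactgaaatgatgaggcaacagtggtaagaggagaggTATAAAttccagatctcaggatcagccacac
Serpinb3d (chr1:107083481-107083580): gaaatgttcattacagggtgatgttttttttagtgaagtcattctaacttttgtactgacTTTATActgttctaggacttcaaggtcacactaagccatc
TATAAA was held by a promoter of 5 of the 9 genes, the 4 Serpinb3 genes and Serpinb12, and by 13.6% of 32851 promoters in the table. The AP-1 letters TGANTCA were found for Serpinb12, Serpinb5 and Stfa3 and in 7.8% of promoters, the STAT letters TTC and GAA, 4 bases apart, for Serpina12 and in 7.0%, and the grainyhead letters AACNGGTT for none of the 9 and in 2.1%. Both strands were searched, and a match describes letters, not a bound site.

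Levels can be compared between genes per length, as FPKM, fragments scaled to gene length and library size. Stfa3 had the highest mean FPKM (358.5 ± 278, SD, n = 9), followed by Serpinb5 (195.9 ± 69.1), with ranges over the libraries that overlapped. Serpinb12 (38.2 ± 19.8), Serpinb3b (30.4 ± 15.0), Serpinb3a (21.6 ± 13.4), Serpina12 (19.1 ± 9.24) and Serpinb6d (17.3 ± 18.5) lay close together, each within 1 SD of its neighbour. Serpinb3d (0.729 ± 0.739) and Serpinb3c (0.0676 ± 0.0854) were far lower. Among the Serpinb3 genes, Serpinb3b thus had the highest and Serpinb3c the lowest mean FPKM. These levels cannot be tied to the promoters shown, since the copy that reads belong to is uncertain. In addition, a Serpinb3b transcript starts within the first exon of Serpinb3c.

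Across the groups, 7 of the 8 genes that passed the filter on low counts were higher in FJDHF-M than in Model skin and 1, Serpinb6d, was lower, beside 9186 of 20817 genes (44.1%) higher over the whole table. Stfa3, Serpinb3a, Serpinb3d, Serpinb12 and Serpina12 differed 2-fold or more upward, and the last 2 and Serpinb3a fell below 2-fold when single libraries were left out. No gene in the whole table passed an adjusted p under 0.05 with a 2-fold change in edgeR's quasi-likelihood test, so none of these differences can be called significant over all genes. In whole skin, more cells of a type and more RNA per cell cannot be told apart. Values below are CPM, counts scaled to library size with TMM normalization, and log2 fold changes are FJDHF-M over Model with the standard error of the edgeR fit.

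**Figure D1:**
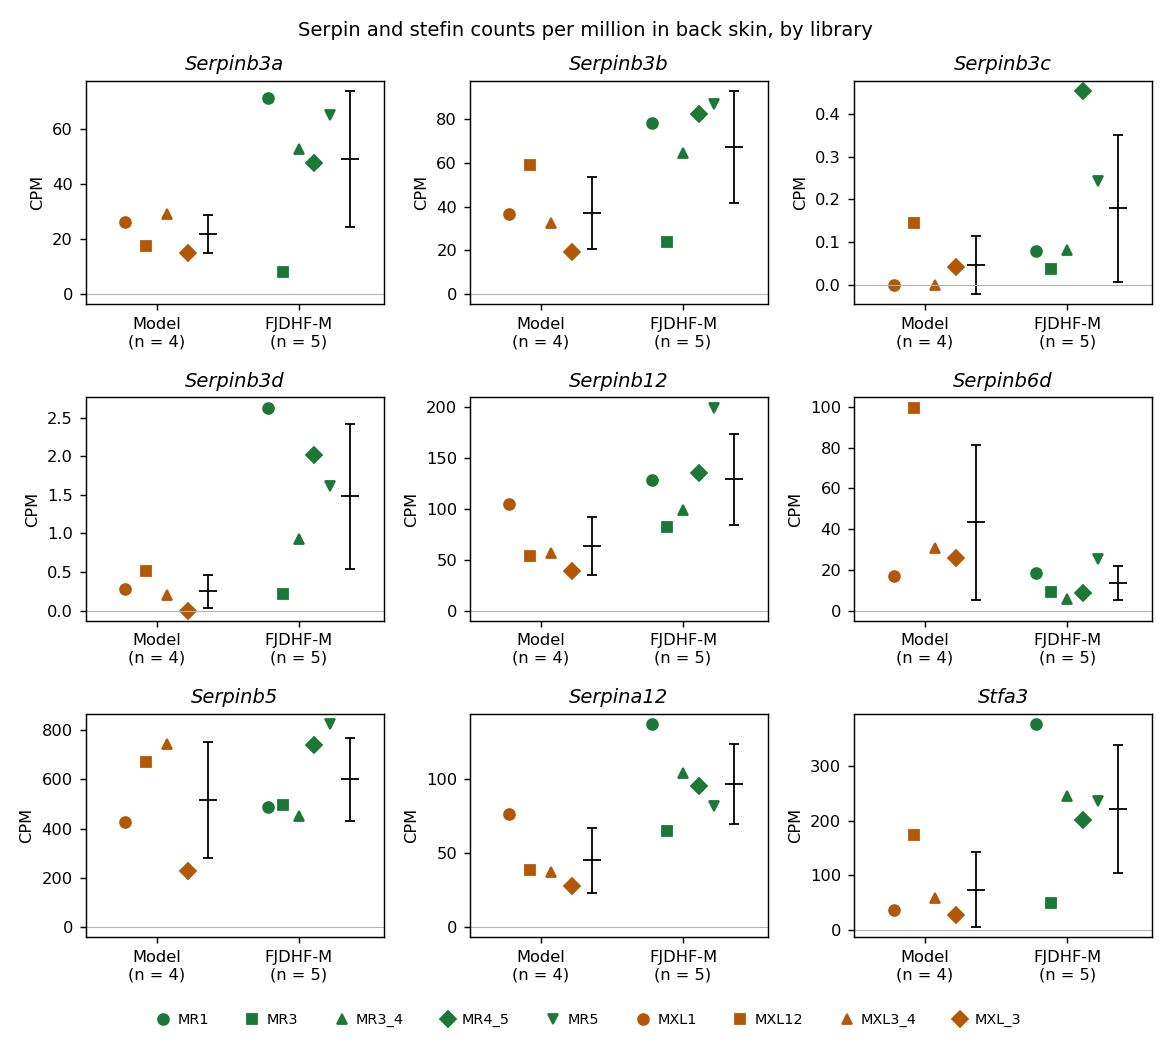
CPM of the 9 genes (y axis, linear, 1 scale per gene) in 4 Model (brown) and 5 FJDHF-M (green) libraries, each library with its own symbol; black bars are mean ± SD. For Serpinb3a, Serpinb3b, Serpinb3d and Stfa3, 4 FJDHF-M libraries lie above all Model libraries and MR3 lies among them or below, while Serpinb6d is highest in MXL12.

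Stfa3, the stefin, had 48.1, 201, 236, 244 and 377 CPM in the FJDHF-M libraries MR3, MR4_5, MR5, MR3_4 and MR1. In Model skin it had 26.4, 35.4, 57.8 and 174 CPM in MXL_3, MXL1, MXL3_4 and MXL12. All FJDHF-M libraries but MR3 were above every Model library, MXL12 being the highest of these. Means were 221 ± 118 (SD, n = 5) and 73.3 ± 68.2 (n = 4), a log2 fold change of 1.59 (SE 0.65). This was 2.47 without MXL12 and 1.29 without MR1.

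Serpinb3a, a mouse counterpart of the human squamous cell carcinoma antigens, had 8.11, 47.8, 52.7, 65.3 and 71.4 CPM in MR3, MR4_5, MR3_4, MR5 and MR1. The Model libraries MXL_3, MXL12, MXL1 and MXL3_4 had 15.0, 17.4, 26.3 and 29.3 CPM. MR3 was the lowest of all 9 libraries and the other 4 FJDHF-M libraries the highest, so the groups overlapped through 1 library. The log2 fold change was 1.16 (SE 0.51), and ranged from 0.98 without MR1 to 1.42 without MR3.

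Serpinb3b, its closest relative in the loop, had 24.0, 64.3, 78.2, 82.2 and 87.1 CPM in MR3, MR3_4, MR1, MR4_5 and MR5. Model skin had 19.4, 32.6, 36.8 and 59.0 CPM in MXL_3, MXL3_4, MXL1 and MXL12. Again 4 FJDHF-M libraries were above all Model libraries, with MR3 above MXL_3 alone. The difference was 0.86 on the log2 scale (SE 0.40), below 2-fold, and ranged from 0.65 without MXL_3 to 1.18 without MXL12.

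Serpinb3d was measured from few reads, with 17 to 198 counts in FJDHF-M and 0 to 39 in Model libraries. It had 0.213, 0.923, 1.62, 2.02 and 2.63 CPM in MR3, MR3_4, MR5, MR4_5 and MR1. In MXL_3, MXL3_4, MXL1 and MXL12 it had 0, 0.207, 0.278 and 0.516 CPM. Its 0 in MXL_3 allows up to 3 counts, or 0.0402 CPM of the library total. The log2 fold change of 2.55 (SE 0.96) was the largest of the 9 and moved to 0.79 on log2(FPKM + 1), a scale that compresses low values.

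Serpinb3c did not pass the filter. It had 3, 6, 6, 19 and 36 counts in MR3, MR1, MR3_4, MR5 and MR4_5 and 0, 0, 3 and 11 counts in MXL1, MXL3_4, MXL_3 and MXL12. A count of 0 allows up to 3 counts, 0.0388 CPM of the total in MXL1 and 0.0378 in MXL3_4. At this depth its groups cannot be separated.

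Summed, the 4 Serpinb3 genes gave 118 ± 50.1 CPM in FJDHF-M (SD, n = 5) and 59.3 ± 17.9 CPM in Model skin (n = 4). This sum does not depend on how reads were divided among the 4 copies. It may still depend on reads shared with other gene models, such as Gm8080, and on how reads with several matches were counted. The sum ranged from 32.4 to 154 CPM in FJDHF-M and from 34.4 to 77.1 CPM in Model libraries, MR3 being the lowest of all. The ratio of Serpinb3b to Serpinb3a CPM had a median of 1.33 in FJDHF-M (1.10 to 2.96) and 1.35 in Model skin (1.11 to 3.39), so it overlapped widely between groups. It was highest in MXL12 and MR3, 1 library of each group.

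**Figure D2:**
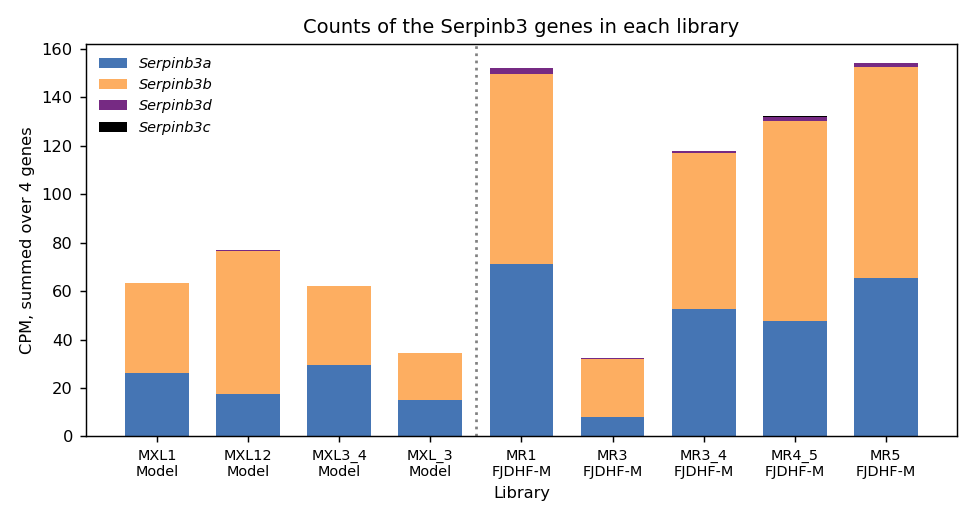
CPM of Serpinb3a, Serpinb3b, Serpinb3d and Serpinb3c (stacked, y axis from 0) in each library (x axis), Model left and FJDHF-M right of the dotted line. The sum is 118 to 154 CPM in 4 FJDHF-M libraries, 32.4 in MR3 and 34.4 to 77.1 in Model libraries, with Serpinb3d and Serpinb3c barely visible.

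Serpinb12, an intracellular inhibitor of trypsin-like serine proteases, had 81.8, 99.1, 128, 135 and 199 CPM in MR3, MR3_4, MR1, MR4_5 and MR5. In MXL_3, MXL12, MXL3_4 and MXL1 it had 38.7, 53.5, 56.2 and 105 CPM. The groups overlapped only through MXL1, which was above MR3 and MR3_4. FJDHF-M was higher by a log2 fold change of 1.02 (SE 0.33), which ranged from 0.81 without MR5 to 1.38 without MXL1.

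Serpina12 (vaspin), a secreted inhibitor of kallikrein 7, had 65.3, 81.7, 95.7, 105 and 138 CPM in MR3, MR5, MR4_5, MR3_4 and MR1. Model libraries had 27.6, 37.2, 38.6 and 76.9 CPM in MXL_3, MXL3_4, MXL12 and MXL1. As for Serpinb12, MXL1 alone reached into the FJDHF-M range, here above MR3. The log2 fold change was 1.11 (SE 0.32), the smallest standard error of the 8 tested, and ranged from 0.93 without MXL_3 to 1.49 without MXL1.

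Serpinb5 (maspin), a clade B serpin that does not inhibit proteases, was the most abundant of these 8 serpins by FPKM. It had 452, 490, 498, 739 and 826 CPM in MR3_4, MR1, MR3, MR4_5 and MR5 and 227, 428, 672 and 744 CPM in MXL_3, MXL1, MXL12 and MXL3_4. The groups lay over each other. The log2 fold change of 0.22 (SE 0.34) turned to -0.03 without MXL_3, so its direction rests on that library.

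Serpinb6d went the other way. It had 5.75, 8.38, 9.31, 18.5 and 25.5 CPM in MR3_4, MR4_5, MR3, MR1 and MR5 and 17.2, 25.5, 30.5 and 99.6 CPM in MXL1, MXL_3, MXL3_4 and MXL12. All Model libraries were above the FJDHF-M median, and MXL12 was far above the rest. FJDHF-M and Model differed by a log2 fold change of -1.68 (SE 0.58), which was -0.86 without MXL12. With the neutrophil marker level as a covariate, an alternative chosen after seeing the data, it was -1.09. That covariate gave 2.08 for Stfa3, 2.71 for Serpinb3d, 0.98 for Serpinb3b and 0.24 for Serpinb5, each higher than without it. It gave 1.10 for Serpinb3a, 0.97 for Serpinb12 and 1.02 for Serpina12, each lower than without it.

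These values chose the genes, so the counts that follow are descriptive. Of 20817 genes tested, 0 (0%) passed an adjusted p under 0.05 and 2-fold, including 0 of the 8 tested here, and DESeq2's Wald test passed 12 of 34637 genes, with 0 of the 9. At an unadjusted p under 0.05 and 2-fold edgeR listed 189 genes (0.908%), 6 of the 8 among them. At an unadjusted p under 0.05 alone it listed 326 genes (1.57%), the same 6 among them. A 2-fold or larger difference upward in FJDHF-M, without a test, was seen for 382 genes (1.84%) and for 5 of the 8. Groups did not overlap for 107 genes (0.514%) and for 0 of the 9. The median log2 fold change was 1.06 over the 8 and -0.03 over all genes.

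The other genes of the protease and inhibitor families were taken from lists and tested in the same fit. None of 80 tested genes passed an adjusted p under 0.05, and at an unadjusted p under 0.05 edgeR listed 5 higher and 1 lower in FJDHF-M. Over the whole table edgeR listed 326 of 20817 genes (1.57%) at that threshold, and 44.1% of genes were higher in FJDHF-M. Of the 15 other clade B serpins tested, 6 were higher and 9 lower (median log2 fold change -0.29), with Serpinb11 listed as higher (0.86, SE 0.37, unadjusted p = 0.0394, adjusted p = 1, edgeR). Of 20 serpins of other clades, 7 were higher and 13 lower (median -0.16), with Serpina3m listed as lower (-0.98, SE 0.38, unadjusted p = 0.0274, adjusted p = 1, edgeR).

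Of 10 other stefins and cystatins none was listed, and their median was 0.08. Cstdc5, the most abundant of them by FPKM, had 420 ± 205 CPM in FJDHF-M (SD, n = 5) and 208 ± 252 CPM in Model skin (n = 4). Cstb, a broadly expressed cathepsin inhibitor, had 58.4 ± 19.5 and 59.3 ± 44.9 CPM. The stefin A-like genes spread widely, from a log2 fold change of -1.36 (SE 1.46) for Csta3 to 1.32 (SE 1.07) for Cstdc6. These had a mean FPKM of 7.62 and 7.32. Csta3 had 1046 counts in MXL12, 0 to 23 in the other Model libraries and 27 to 307 in FJDHF-M. Its lower value in FJDHF-M thus rests on MXL12, and neither gene differs clearly.

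None of the 9 other inhibitors of skin was listed (median 0.27). Spink5, which encodes the kallikrein inhibitor LEKTI, had 537 ± 88.6 CPM in FJDHF-M and 415 ± 173 CPM in Model skin, and Wfdc21 had 21.5 ± 16.8 and 13.1 ± 4.47 CPM. The 10 cysteine proteases, 9 cathepsins and legumain, lay close to no change (median 0.01, range -0.18 to 0.15). Cathepsin K (Ctsk) had 636 ± 253 and 723 ± 64.9 CPM, and cathepsin B (Ctsb) 1682 ± 183 and 1632 ± 259 CPM.

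Of all tested genes, 44.1% were higher in FJDHF-M and edgeR listed 1.57% at an unadjusted p under 0.05, in either direction. Among serine proteases 15 of 16 tested genes were higher, with a median log2 fold change of 0.77 and 4 listed at an unadjusted p under 0.05. These were the kallikrein-related peptidases Klk5 (0.97, SE 0.38, unadjusted p = 0.0283), Klk13 (1.46, SE 0.58, unadjusted p = 0.0286), Klk8 (1.19, SE 0.49, unadjusted p = 0.0358) and Klk9 (1.14, SE 0.50, unadjusted p = 0.0463), each with an edgeR adjusted p of 1. Klk5 had 79.8 ± 16.1 CPM in FJDHF-M and 40.8 ± 28.5 CPM in Model skin, where 1 library reached 83.1 CPM. The tested serine proteases that are not kallikrein-related ran from -1.121 (Ctsg, SE 0.565) to 0.31 (Prss8, SE 0.67). Ctsg was measured from few reads, with 4 to 36 counts per library. The higher list median thus came mainly from the kallikrein-related peptidases, and no gene of the list passed the adjusted threshold.

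**Figure D3:**
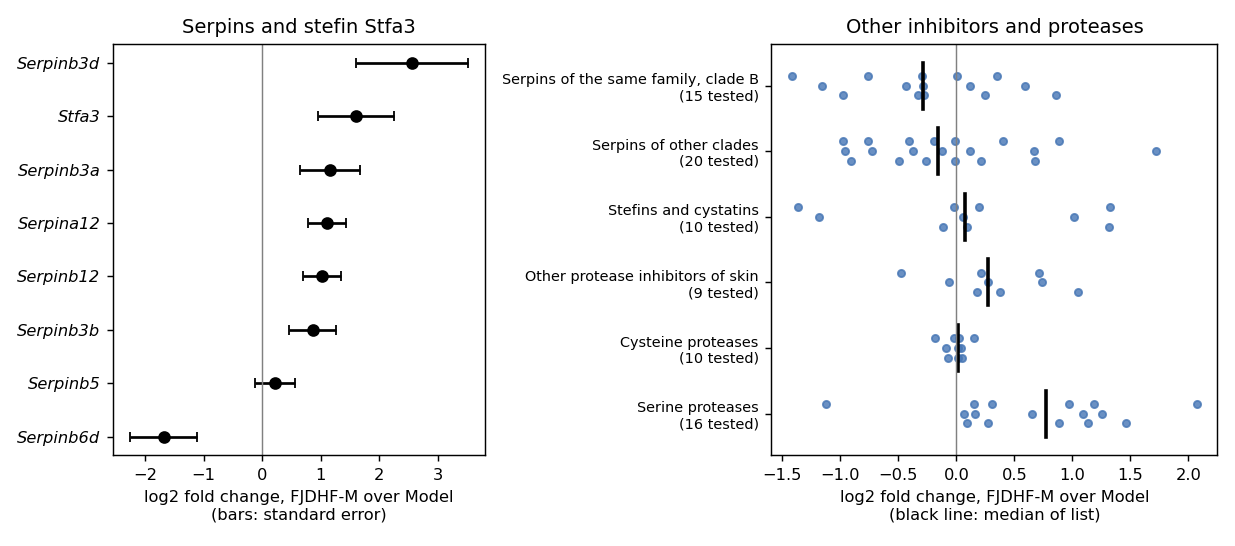
Log2 fold change of FJDHF-M over Model (x axis). Left, the 8 tested genes, Stfa3 among them and Serpinb3c left out as not tested (bars are SE). Right, every tested gene of 6 lists of other inhibitors and proteases (1 point per gene, black line the median). Serpinb3d is highest at 2.55 and Serpinb6d lowest at -1.68, and the serine proteases have the highest list median, 0.77.

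Some lists of cell type markers shifted between the groups on average, while others lay near no change. Of all tested genes, 44.1% were higher in FJDHF-M. Differentiated keratinocyte markers, such as the suprabasal keratins Krt1 and Krt10 and filaggrin (Flg), were higher in FJDHF-M for 13 of 14 genes (median log2 fold change 0.76). Their mean level per library, as log2(CPM + 0.5), was 7.54 to 8.15 in FJDHF-M and 6.46 to 7.75 in Model skin. Basal keratinocyte markers were split 4 to 4 (median 0.01), from 6.92 to 8.08 and from 6.49 to 8.58. Neutrophil markers were lower in FJDHF-M for 12 of 12 genes (median -1.19). Their mean level was 1.15 to 1.84 in FJDHF-M and 0.71 to 3.28 in Model skin, highest in MXL12. Only the Model libraries MXL12 (3.28) and MXL_3 (2.36) were above the FJDHF-M range. MXL1 (0.71) and MXL3_4 (1.00) were below every FJDHF-M library, so the direction was not shared by all Model libraries. Activated keratinocyte markers were higher for 5 of 6 genes (median 1.195), with a mean level of 5.87 to 7.66 in FJDHF-M and 3.80 to 6.37 in Model skin. Fibroblast markers were lower for 6 of 6 genes (median -0.42), with a mean level of 10.84 to 11.68 and 11.38 to 11.90. Macrophage markers were higher for 7 of 7 (median 0.24), hair follicle markers for 6 of 9 (0.13), adipocyte markers for 5 of 6 (0.23) and skeletal muscle markers for 3 of 7 (-0.21). No marker of these 9 lists was at the floor in every library.

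Over the 9 libraries, which belong to the 2 groups and are no independent sample of a relation, log2(CPM + 0.5) of Serpina12 followed the differentiated keratinocyte markers most closely (r = 0.96), then Serpinb12 (0.82), Serpinb3d (0.70), Serpinb3a and Serpinb3b (0.56 each), Stfa3 (0.53) and Serpinb5 (0.32). Serpinb6d ran against them (-0.67) and with the neutrophil markers (0.64). MXL12 was the highest library both for Serpinb6d (6.65) and for the neutrophil markers (3.28). The latter r thus leans on 1 library, and its value without MXL12 was not computed. The strongest r of Serpinb5 were negative, with the skeletal muscle (-0.79) and macrophage markers (-0.72). With the activated keratinocyte markers r was 0.75 for Serpinb3b, 0.74 for Serpinb3d, 0.70 for Serpina12, 0.67 for Serpinb12, 0.66 for Stfa3, 0.58 for Serpinb5, 0.38 for Serpinb3a and -0.25 for Serpinb6d. With the differentiated keratinocyte level as a covariate in the fit, an alternative chosen after seeing the data, the log2 fold change was 0.27 for Serpina12, 0.55 for Serpinb3a, 0.56 for Serpinb12, 0.63 for Serpinb3b, 1.54 for Serpinb3d, 0.16 for Serpinb5 and -0.74 for Serpinb6d. That of Stfa3 was 1.63, against 1.59 without the covariate. The planned basal keratinocyte covariate gave 1.155 for Serpinb3a, 0.87 for Serpinb3b, 2.50 for Serpinb3d and 1.04 for Serpinb12. It gave -1.38 for Serpinb6d, 0.22 for Serpinb5, 1.09 for Serpina12 and 1.81 for Stfa3. The planned skeletal muscle covariate gave 1.18 for Serpinb3a, 1.03 for Serpinb3b, 3.16 for Serpinb3d and 1.04 for Serpinb12. For Serpinb6d it gave -1.335, for Serpinb5 0.41, for Serpina12 1.12 and for Stfa3 2.15. The part of cell composition in these differences was not tested.

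**Figure D4:**
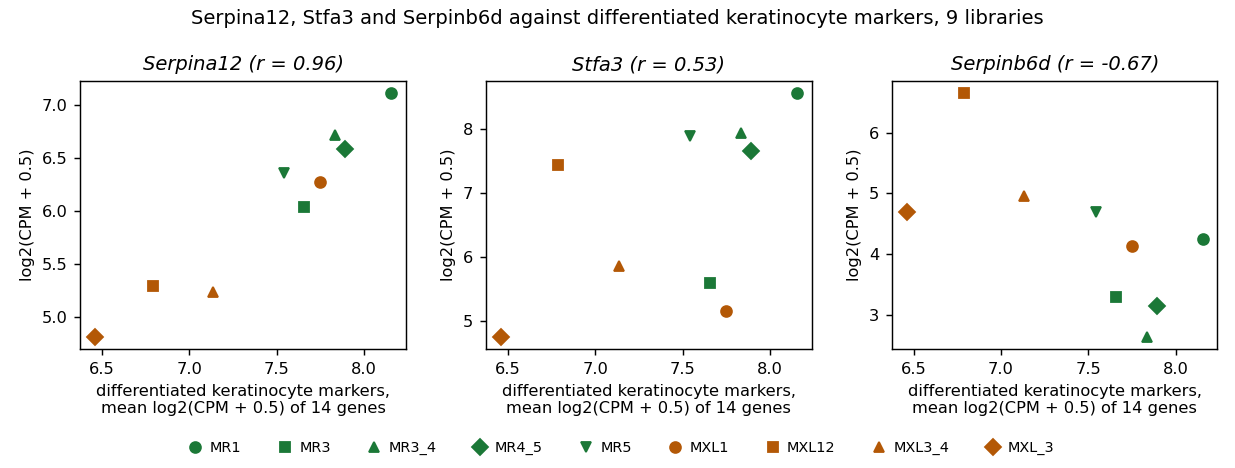
Log2(CPM + 0.5) of Serpina12, Stfa3 and Serpinb6d (y axis) against the mean log2(CPM + 0.5) of 14 differentiated keratinocyte markers (x axis) in 4 Model (brown) and 5 FJDHF-M (green) libraries. Serpina12 rises with the markers across both groups (r = 0.96), Stfa3 less so (0.53), and Serpinb6d falls (-0.67).

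Among themselves the genes also moved together library by library. Over the 28 pairs of the 8 tested genes, Pearson's r of log2(CPM + 0.5) had a median of 0.65. The 21 pairs without Serpinb6d lay between 0.27 and 0.93, highest for Serpinb3b with Stfa3, which lie on different chromosomes. The 7 pairs with Serpinb6d lay between -0.61 and 0.16. All pairs share library, depth and group, and these values are a description.

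**Figure D5:**
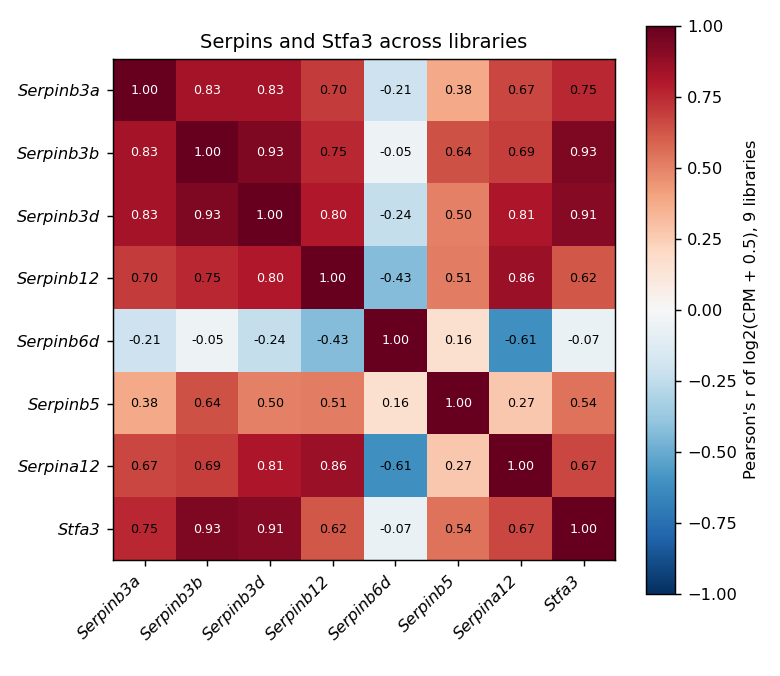
Pearson's r of log2(CPM + 0.5) over 9 libraries for each pair of the 8 tested genes (both axes), from blue (-1) to red (1). Serpinb3a, Serpinb3b, Serpinb3d and Stfa3 form a block of 0.75 to 0.93, and the row of Serpinb6d stays at 0.16 or below.

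The genes whose pattern over the 9 libraries was most like the mean of the tested serpins and Stfa3 were Cyp3a13 (r = 0.989), Kcnv1 (0.985) and Gm9696 (0.961). Most like Stfa3 alone were Cstdc5 (0.979), Abhd6 (0.953) and Spink7 (0.952), and most like Serpina12 were Gm37496 (0.979), Hrnr (0.977) and Dmkn (0.965). Cstdc5 is itself a stefin A-like gene, and Hrnr, hornerin, is one of the 14 differentiated keratinocyte markers.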

How the data were processed

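RNA of back skin was sequenced in paired-end mode with reads of 150 bases from strand-specific poly(A) libraries, per the paper's methods. The authors deposited raw read counts per gene for 55401 genes and FPKM values, per gene length and library size, for 34637 genes. HISAT, StringTie, DESeq2 and the build mm10 are named in the submitters' processing notes without roles or versions, and the annotation release, the strand setting and the treatment of reads with several matches are not given in the sources used here. The FPKM table also repeats the counts in 9 columns, which were identical and not used.

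The counts were filtered with filterByExpr, scaled by TMM and compared between groups by the quasi-likelihood test of edgeR 4.0.16 (R 4.3.3) without a covariate, and p-values were adjusted by Benjamini-Hochberg over 20817 genes. Alternatives used DESeq2 1.42.0, limma 3.58.1 on log2(FPKM + 1) and log2(FPKM + 0.1), other filters, marker levels as covariates and leaving out each library. CPM used TMM-scaled library sizes. Counts of 3 or fewer in a library were taken as the floor, for counting error only. The p-values measure the spread between libraries. Members and gene lists were chosen with earlier results of these data known. Besides the 9 members, the text names in each list of inhibitors or proteases the genes at an unadjusted p under 0.05 (at most 4), or the 2 with the highest mean FPKM where there are none. It also names the 3 genes most correlated with each of 3 patterns. Gm8080, Csta3, Cstdc6, Ctsg, Prss8, Krt1, Krt10 and Flg were named after their values were seen. The edgeR step was tested on simulated data with known changes. Sequences came from GENCODE M21 and RefSeq (GRCm38).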

Additional observations from a re-analysis of the deposited data

Results flagged for a closer look

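Serpinb3a was far lower in MR3 than in the other FJDHF-M libraries, with 8.11 CPM against 47.8 to 71.4. On log2(CPM + 0.5) the gap to the next library was 0.813 of the group's range, above Dixon's critical value of 0.71 for 5 samples. Serpinb3b was also lowest in MR3 among the FJDHF-M libraries, at 24.0 CPM, with a ratio of 0.763. These were 2 of 18 comparisons of 9 genes in 2 groups, where 0.9 would be flagged by chance. The genes share sequence and library, so they are not separate observations.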

How the results depend on the processing

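All log2 fold changes of the 8 tested genes kept their direction under every alternative run, except that of Serpinb5, which was -0.033 without MXL_3 and up to 0.442 without other libraries. Of 167 such values, 163 moved by less than the spread between replicates and 3 by more, namely Serpinb3d on log2(FPKM + 1) and Serpinb3d and Serpina12 with the differentiated keratinocyte covariate. Genes passing an adjusted p under 0.05 and 2-fold numbered 0 in all settings but DESeq2's Wald test, which gave 12. At an unadjusted p and 2-fold the count of 189 became 450 with DESeq2's Wald test, 124 with at least 10 counts in every library, 47 with limma on log2(FPKM + 1) and 772 without a filter. Leaving out 1 library gave 140 (without MR4_5) to 431 (without MXL1), with 305 without MXL_3. The count of 6 listed genes among other inhibitors and proteases became 12 and 13 with limma on log2(FPKM + 0.1) and log2(FPKM + 1), and 13 with the muscle marker covariate. It ran from 1 (without MR4_5) to 11 (without MXL12), and was 3 without MXL3_4. The causes were not tested. Column codes of both groups share 3 numbers, which the sources do not say mark a litter, batch or day. Deviations from the group means correlated at 0.22, 0.12 and -0.22 in these 3 pairs, so the numbers were not taken to pair the libraries. Over these 6 libraries a fit with the number as a replicate block, chosen after seeing the data, gave 14 listed genes among other inhibitors and proteases against 6 without the block, 174 against 196 genes at an unadjusted p and 2-fold, and 0 at an adjusted p in both. The log2 fold change of Serpinb3a over these 6 libraries was 0.49 with the block, the lowest of its alternatives, and 0.90 without the block. Low counts limit Serpinb3c and Serpinb3d.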
